A study of Mus musculus with 35 samples.

Results

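The expression of 18193 genes was measured in mouse liver at 2 months of age, with and without loss of the atypical E2F transcription factors E2f7 and E2f8, and the knockout is compared here with wild type. The comparison holds 7 of the 35 arrays of the series, each carrying one liver RNA sample on an Affymetrix oligonucleotide array. Livers of the genotype Albumin-Cre E2f7loxp/loxp E2f8loxp/loxp at 2 months (n = 4) form the knockout, called the E2f7/E2f8 knockout below. Livers named as wild-type controls at 2 months, replicates 1 to 3, form its reference, and the same genotypes at 3 weeks (n = 4 and 3) are used for the change with age. The other 2 wild-type arrays at 2 months, replicates 4 and 5, were left out of the comparison because the distribution of their values sets them in another run, apart from the first. The single knockouts Albumin-Cre E2f7loxp/loxp and Albumin-Cre E2f8loxp/loxp at 2 months (n = 4 each) are set beside it where stated. All groups are on the FVB background. The albumin promoter drives Cre in hepatocytes, and deletion in other liver cells was not tested here. Whether the wild-type controls carry Cre or floxed alleles, and the sex of the animals, were not given in the sources used here. Per the series' design text, deletion was checked by PCR on DNA of each sample.

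E2F factors bind DNA and set the timing of transcription of genes for DNA replication and cell division. E2f7 and E2f8 are the atypical members, which bind DNA without a DP partner and repress many of the genes that E2f1, E2f2 and E2f3 activate. In the liver they are known for their part in the polyploidization of hepatocytes, which happens as the liver grows after weaning.

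At 2 months 2 genes passed the test, out of 18193. The non-coding RNA gene Gm2788, which overlaps E2f8, fell by 3.38 on the log2 scale, a 10.4-fold lower signal, and Yae1d1, whose product is an adaptor in the maturation of an iron-sulfur protein needed by ribosomes, rose by 0.69, a 1.61-fold higher signal. No gene of DNA replication or mitosis passed. Interferon response genes lay higher in 26 of 27 measured members and sinusoidal endothelial genes lower in 20 of 21, with no member of either list called. Members of all gene lists used here were chosen with earlier results of these data known. All values are log2 signal after robust multi-array averaging (RMA), differences are knockout minus wild type, and a gene is called at an adjusted p under 0.05 by limma over all genes. The 2 calls are 0.011% of the genes tested. At an unadjusted p under 0.05 there were 739 genes (4.06%), of which 440 stood higher (2.42%) and 299 lower (1.64%).

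Arrays of one group at 2 months correlated at 0.9951 to 0.9973 in the E2f7/E2f8 knockout and 0.9945 to 0.9961 in wild type across genes, which are not independent replicates. Hepatocyte identity genes such as Alb and Ttr averaged 13.88 to 13.93 in the knockout arrays and 13.92 to 13.93 in the wild-type arrays over 22 measured markers, so the labelled tissue carried its markers. The difference between 3′ and 5′ probe sets of the control gene Gapdh, which grows as RNA degrades, was 1.68 to 1.99 in knockout arrays and 1.62 to 1.87 in wild-type arrays, and 0.19 to 0.31 against 0.26 to 0.41 for Actb. A two-sided exact permutation test gave p = 0.457 for Gapdh and p = 0.171 for Actb, where 4 arrays against 3 allow no p under 0.0571. Nothing in the labels says whether the arrays come from separate animals, so the spread between arrays may be technical. The permutation p-values use the compared arrays alone. The limma p-values and SEs rest on a spread pooled over all groups of the series, at both ages. They are too small for genes that vary more at 2 months than elsewhere, and too large for genes that vary less.

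**Figure D1:**
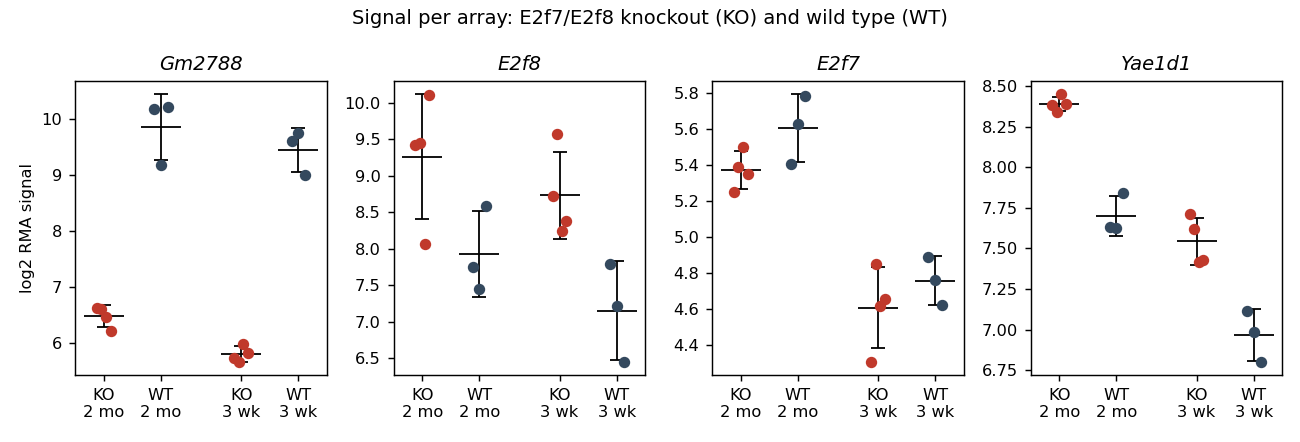
Log2 RMA signal (y axis) of Gm2788, E2f8, E2f7 and Yae1d1 on each array of the E2f7/E2f8 knockout (KO, red) and wild type (WT, dark) at 2 months and at 3 weeks. Points are arrays, and the bar with whiskers is the mean ± SD. Gm2788 is lower on every knockout array and Yae1d1 higher at both ages, while the groups overlap for E2f8 and E2f7 at 2 months.

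The 2 targeted genes were read first. The E2f7 probe set had 5.25, 5.39, 5.50 and 5.35 in knockout livers, against 5.41, 5.63 and 5.78 in wild-type livers. The groups overlapped by a narrow margin, at a difference of -0.23 (SE 0.15, adjusted p = 1.00). The brighter E2f8 probe set had 9.42, 9.45, 8.07 and 10.1 in knockout livers, against 7.75, 7.44 and 8.58 in wild-type livers. Its mean was 9.26 ± 0.85 (SD, n = 4) in the knockout and 7.92 ± 0.59 (SD, n = 3) in wild type, and the difference of 1.33 (SE 0.35, adjusted p = 0.454) did not pass. Knockout array 3 was the low one and lay below wild-type array 3, and without it the difference was 1.73 with an adjusted p of 0.0346. At 3 weeks the brighter probe set rose by 1.58 (SE 0.35, adjusted p = 0.0349) in the knockout, which was a call. The dimmer E2f8 probe set stood at 0.39 (SE 0.29) at 2 months. Where these probes lie relative to the deleted exons was not given in the sources used here, so neither E2f7 nor E2f8 signal checks the deletion. Among the activators E2f1, E2f2 and E2f3 and the repressors E2f4, E2f5 and E2f6, differences ran between -0.096 and 0.17, with overlapping groups in each case.

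Gm2788 lies at chr7:48881300-48886608 in GRCm38.p6 and overlaps E2f8 at chr7:48866429-48882073. Its signal was 6.62, 6.61, 6.46 and 6.21 in knockout livers, against 10.18, 9.18 and 10.21 in wild-type livers. The knockout livers were all far below the wild-type livers, by 3.38 (SE 0.43, 95% interval -4.26 to -2.50, adjusted p = 0.00015). The same gene fell by 3.66 in the knockout at 3 weeks (SE 0.43). At 2 months the single knockouts, which share the wild-type arrays, stood at -0.60 for E2f7 and -3.32 for E2f8. Within 5 Mb of E2f8, 8 of 152 other genes (5.26%) had an unadjusted p under 0.05, near the 4.06% of all genes, and none was called. Around E2f7 these were 1 of 35 genes.

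Yae1d1 lies at chr13:17986640-17993351. Its brightest probe set read 8.38, 8.34, 8.45 and 8.39 in knockout livers, against 7.63, 7.62 and 7.84 in wild-type livers. Every knockout liver lay above every wild-type liver, at a difference of 0.69 (SE 0.10, 95% interval 0.49 to 0.89, adjusted p = 0.00108), and Yae1d1 also rose by 0.58 at 3 weeks (SE 0.10). The other two probe sets of the gene disagreed, one at 0.33 (SE 0.11) with all knockout arrays higher and one at -0.21 (SE 0.10) with all of them lower, and with the mean of all probe sets per gene the difference was 0.27 and not called. At 2 months the E2f7 knockout stood at 0.63 (adjusted p = 0.0111) and the E2f8 knockout at 0.68 (adjusted p = 0.000848) against the same wild-type arrays. Yae1d1 was thus called in both single knockouts too. With all 5 wild-type arrays as the reference and no term for the run the difference was 0.17 and not called. Of 48 genes within 5 Mb, Ggps1 stood at 0.47, Rala at -0.34, and 4 in all (8.33%) had an unadjusted p under 0.05. Of all genes 4.06% had such a p.

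The promoter windows of E2f7, E2f8, Yae1d1 and 2 replication genes are shown because they carry, or lack, the word that E2F proteins prefer. Windows are from RefSeq, build GRCm38.p6, and run from 250 bases before to 50 after the start, written 5′ to 3′ on the gene's strand. Capitals mark one of 4 E2F words, TTTCCCGC, TTTCGCGC, TTTGCCGC or TTTGGCGC, on either strand. The windows lie at chr10:110745189-110745488 on the plus strand for E2f7, chr7:48881547-48881846 on the minus strand for E2f8, chr13:17993302-17993601 on the minus strand for Yae1d1, chr1:128359656-128359955 on the minus strand for Mcm6, a subunit of the replicative helicase, and chr11:98907901-98908200 on the plus strand for Cdc6, which loads that helicase.
E2f7: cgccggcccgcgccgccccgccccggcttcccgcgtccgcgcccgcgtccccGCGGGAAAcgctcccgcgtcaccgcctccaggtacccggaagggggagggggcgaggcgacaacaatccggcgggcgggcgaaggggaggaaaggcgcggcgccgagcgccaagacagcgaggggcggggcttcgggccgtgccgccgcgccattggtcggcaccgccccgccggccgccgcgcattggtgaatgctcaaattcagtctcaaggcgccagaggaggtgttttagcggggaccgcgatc
E2f8: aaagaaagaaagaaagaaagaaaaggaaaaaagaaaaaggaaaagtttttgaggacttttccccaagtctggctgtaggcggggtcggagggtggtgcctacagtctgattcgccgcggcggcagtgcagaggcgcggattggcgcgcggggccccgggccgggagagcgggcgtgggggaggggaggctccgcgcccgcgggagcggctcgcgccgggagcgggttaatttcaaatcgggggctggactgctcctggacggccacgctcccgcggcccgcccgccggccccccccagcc
Yae1d1: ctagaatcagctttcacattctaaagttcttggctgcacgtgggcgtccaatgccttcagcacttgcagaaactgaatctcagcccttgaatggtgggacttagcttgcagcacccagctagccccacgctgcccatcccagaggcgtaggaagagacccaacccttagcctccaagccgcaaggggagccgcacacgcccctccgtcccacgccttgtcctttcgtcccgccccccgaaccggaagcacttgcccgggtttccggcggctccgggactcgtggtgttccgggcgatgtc
Mcm6: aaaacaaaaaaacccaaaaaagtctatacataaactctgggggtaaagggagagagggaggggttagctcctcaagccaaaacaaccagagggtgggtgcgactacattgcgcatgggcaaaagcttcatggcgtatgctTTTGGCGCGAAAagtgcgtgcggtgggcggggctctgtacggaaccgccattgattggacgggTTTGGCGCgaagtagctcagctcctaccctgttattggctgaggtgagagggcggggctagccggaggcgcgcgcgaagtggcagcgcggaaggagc
Cdc6: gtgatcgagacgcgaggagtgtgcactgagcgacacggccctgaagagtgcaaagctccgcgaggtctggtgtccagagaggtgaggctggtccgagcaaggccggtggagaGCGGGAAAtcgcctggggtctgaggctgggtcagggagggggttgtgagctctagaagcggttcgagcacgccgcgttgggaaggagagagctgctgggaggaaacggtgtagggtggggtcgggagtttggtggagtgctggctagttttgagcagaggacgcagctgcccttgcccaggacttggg
The E2f7 window held 1 such word, Mcm6 3, of which a pair overlap, and Cdc6 1, and neither E2f8 nor Yae1d1 held these letters. The E2f8 window lies wholly inside Gm2788.

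Of 14452 tested genes with a window, 550 (3.81%) held an E2F word. In these 550 genes the median difference was 0.0018, against 0.0054 in the genes without one. None was called, and 13 (2.36%) stood higher and 6 lower at an unadjusted p under 0.05. Of all 18193 genes 2.42% stood higher and 1.64% lower at that p. Among genes for replication licensing and origin firing, the step that loads and starts the helicase, 11 of 21 (52.4%) held a word. Those 11 had a median of 0.072, against 0.030 in the licensing genes without one. In the replication fork list the order was reversed, at 0.018 with a word and 0.066 without. Over the replication and mitosis lists together the medians were 0.051 with a word and 0.046 without. A match is a description of these letters, not of binding.

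Cell-cycle genes lay near wild type at 2 months. Of 27 licensing genes 18 stood higher, as did 9537 of all 18193 genes, and their median was 0.033 against 0.0049 over all genes. Only Mcm10, on the lower side, had an unadjusted p under 0.05, where 1.64% of all genes stood lower at that p. Mcm6 had 5.38, 7.19, 6.41 and 6.97 in knockout livers, against 5.78, 5.53 and 6.74 in wild-type livers, and the groups overlapped widely at a difference of 0.47 (SE 0.45). Cdc6 stood at 0.024 (SE 0.21), and Cdt1, the licensing partner of Cdc6, at 0.23 (SE 0.23). Mcm10, which joins the helicase at firing, was lower on all 4 knockout arrays at -0.55 (SE 0.25, adjusted p = 1.00). Genes of the replication fork and nucleotide supply stood higher in 24 of 34 (median 0.048). Tk1, which phosphorylates thymidine, read 10.14, 10.08, 10.23 and 10.21 in knockout livers, against 9.53, 9.90 and 10.01 in wild-type livers. Its groups did not overlap, at a difference of 0.35 (SE 0.14, adjusted p = 1.00). Tipin, of the fork protection complex, stood at -0.44 (SE 0.17) and Rrm2, a ribonucleotide reductase subunit, at 0.44 (SE 0.28).

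Mitosis and cytokinesis genes stood higher in 46 of 61, with a median of 0.050, and none had an unadjusted p under 0.05. Without knockout array 2 the median was 0.023, and without wild-type array 2 it was 0.096. Ube2c, the ubiquitin-conjugating enzyme of the anaphase-promoting complex, stood at 0.40 (SE 0.25) and the centromere gene Cenpm at 0.39 (SE 0.21). Cyclins, cyclin-dependent kinases and inhibitors of the G1/S step had a median of -0.041 over 23 genes. Their smallest p belonged to Cdkn2c, an inhibitor of Cdk4 and Cdk6, which read 8.71, 9.10, 9.07 and 9.03 in knockout livers, against 8.74, 8.50 and 8.23 in wild-type livers. Knockout array 1 fell within the wild-type range, and the difference was 0.49 (SE 0.13, adjusted p = 0.557); at 3 weeks Cdkn2c rose by 0.64. DNA repair and checkpoint genes had a median of 0.011 over 26 genes, with Brca1 at 0.48 (SE 0.26). The lists of E2F family members and partners (17 genes), p53 targets (23) and oncofetal liver genes (13) had medians of 0.0041, 0.057 and -0.014. Of 6 histone genes measured, the linker histone H1f2 stood at 0.53 (SE 0.19).

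**Figure D2:**
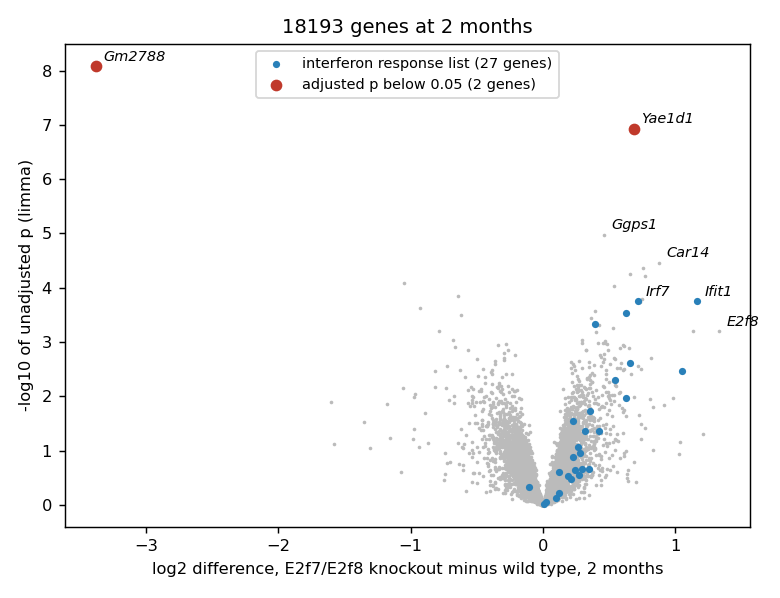
Difference of each of 18193 genes between the E2f7/E2f8 knockout and wild type at 2 months (x axis, log2) against -log10 of the unadjusted limma p (y axis). The 2 called genes are red and the 27 interferon response genes blue; 26 of the blue points lie to the right of 0.

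The spread of the differences over all genes was narrow. The difference passed 1 on the log2 scale in 17 genes, 7 higher and 10 lower, and 0.5 in 162 genes. The median SE was 0.10. For 90.4% of the genes the 95% interval of the difference lay within 0.5 of 0, and for 98.8% within 1. Differences larger than that are therefore outside the intervals of most genes, and smaller ones may have been missed.

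Genes that did not pass but had the smallest p are given as values. The lowest of these was for Ggps1, which makes geranylgeranyl diphosphate, with 7.16, 7.00, 7.14 and 6.95 in knockout livers, against 6.62, 6.63 and 6.55 in wild-type livers. The groups were apart by 0.47 (SE 0.09, adjusted p = 0.064), and Ggps1 was called under 6 of the other settings tried. The membrane carbonic anhydrase Car14 had 9.54, 10.5, 10.43 and 10.21 in knockout livers, against 9.55, 9.31 and 9.01 in wild-type livers. Ethe1, a mitochondrial sulfur dioxygenase, had 9.73, 10.53, 10.57 and 10.37 in knockout livers, against 9.80, 9.54 and 9.59 in wild-type livers. Knockout array 1 kept to the wild-type range for both genes. The adjusted p of both rests on spread pooled over all groups, not on these arrays alone. Without that array Car14 stood at 1.09 (adjusted p = 0.00141) and Ethe1 at 0.85 (adjusted p = 0.000409), against 0.88 and 0.66 with it. With all 5 wild-type arrays and no run term Ggps1 stood at 0.084, Car14 at 0.45 and Ethe1 at -0.025, none called. The growth arrest gene Gas1 stood at 0.76 (SE 0.16) and did not overlap between groups, nor did Fam214a at 0.77, Usp40 at 0.54, Dclk3 at 0.75, Marveld2, of tricellular junctions, at 0.74 and Pxylp1 at 0.40.

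On the lower side the smallest p among genes not called belonged to the clone-named gene 0610005C13Rik, which lies at chr7:45567795-45575176 and had 9.30, 8.22, 8.10 and 8.27 in knockout livers, against 9.51, 9.40 and 9.65 in wild-type livers. All knockout livers were lower, with knockout array 1 close to the wild-type livers, at -1.05 (SE 0.23, adjusted p = 0.187), and 0610005C13Rik stood at -0.93 at 3 weeks (adjusted p = 0.0502). Without knockout array 1 it fell by 1.32 (adjusted p = 0.00192), and it was called in 3 of the other settings. This gene was chosen after its values were seen. Among genes with other names the smallest p was that of the depalmitoylase Abhd17b, which had 9.98, 10.19, 9.46 and 10.28 in knockout livers, against 10.82, 10.66 and 11.23 in wild-type livers. All knockout livers were lower, at -0.93 (SE 0.22, adjusted p = 0.292). Hsd17b6, an androgen-metabolising dehydrogenase, stood at -0.78 (SE 0.20), the actin-severing protein Gsn at -0.68 (SE 0.19) and the shear-responsive transcription factor Klf2 at -0.56 (SE 0.16), each with all knockout arrays lower. Cyp21a1, of steroid synthesis, at -0.62 and the water channel Aqp1 at -0.66 overlapped between groups. The remaining ones by rank were Lhx5 at -0.28, Rala at -0.34, Adcy4 at -0.26, the cysteinyl-tRNA synthetase Cars at -0.30, Rps19 of the small ribosomal subunit at -0.21 and Pgf at -0.29.

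Interferon response genes formed the list with the largest count of members at an unadjusted p under 0.05, 12 of 27, all higher. List members were chosen with earlier results of these data known, so this ranking and its counts are a description, not a test. They are induced when interferon receptors activate STAT and IRF factors, and code for antiviral proteins, antigen processing subunits and the factors themselves. Over all genes 2.42% stood higher at an unadjusted p under 0.05. The list median was 0.28, against 0.0049 over all genes. In 8 of the 27 all knockout arrays lay above all wild-type arrays (3.5% of all genes did; 2.39% had all below). Without wild-type array 3, 6 of the 27 had an unadjusted p under 0.05. None passed over all genes, with adjusted p of 0.236 at the lowest, for Ifit1 and Irf7.

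Ifit1, which binds foreign RNA, had 7.86, 8.02, 7.99 and 7.26 in knockout livers, against 7.06, 6.42 and 6.35 in wild-type livers. The groups were apart, with knockout array 4 close to wild-type array 1, at a difference of 1.17 (SE 0.27). Irf7, the factor that amplifies type I interferon, had 8.90, 9.07, 9.52 and 8.62 in knockout livers, against 8.44, 8.28 and 8.20 in wild-type livers, a difference of 0.72 (SE 0.17). Its relative Irf1 had 10.22, 9.46, 9.73 and 9.80 in knockout livers, against 9.12, 9.35 and 9.05 in wild-type livers. Irf1 did not overlap either, at 0.63 (SE 0.15, adjusted p = 0.311). Usp18, which removes the ubiquitin-like Isg15, had 8.05, 8.58, 8.54 and 7.22 in knockout livers, against 7.80, 6.95 and 6.38 in wild-type livers, and its groups overlapped at 1.05 (SE 0.33). Rsad2 at 0.55, Ifit3 at 0.63, Oasl1 at 0.66, Xaf1 at 0.42 and the chemokine Cxcl10 at 0.27 did not overlap, while Mx2 at 0.39, Ifih1 at 0.36, Oas1a at 0.32 and Mx1 at 0.23 did. Gbp2 at -0.10 was the lone member on the lower side.

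The mean of the 27 genes was 7.77, 7.86, 7.97 and 7.64 in knockout livers, against 7.63, 7.42 and 7.30 in wild-type livers. Knockout array 4 lay just above wild-type array 1, and the groups did not overlap. At 2 months the list median was -0.044 in the E2f7 knockout and 0.093 in the E2f8 knockout against the same wild-type arrays, whose share in all 3 comparisons makes these values not independent. At 3 weeks the median in the E2f7/E2f8 knockout was 0.11, with 19 of 27 higher. With all 5 wild-type arrays as the reference and no term for the run the median was 0.13, with 20 of 27 higher. Macrophage markers averaged lower in the same knockout livers and T, NK and B cell markers had a median of 0.016 over 19 genes, with means of 5.76 to 5.85 in the knockout and 5.75 to 5.84 in wild type. The part of immune cells in the interferon values was not tested.

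**Figure D3:**
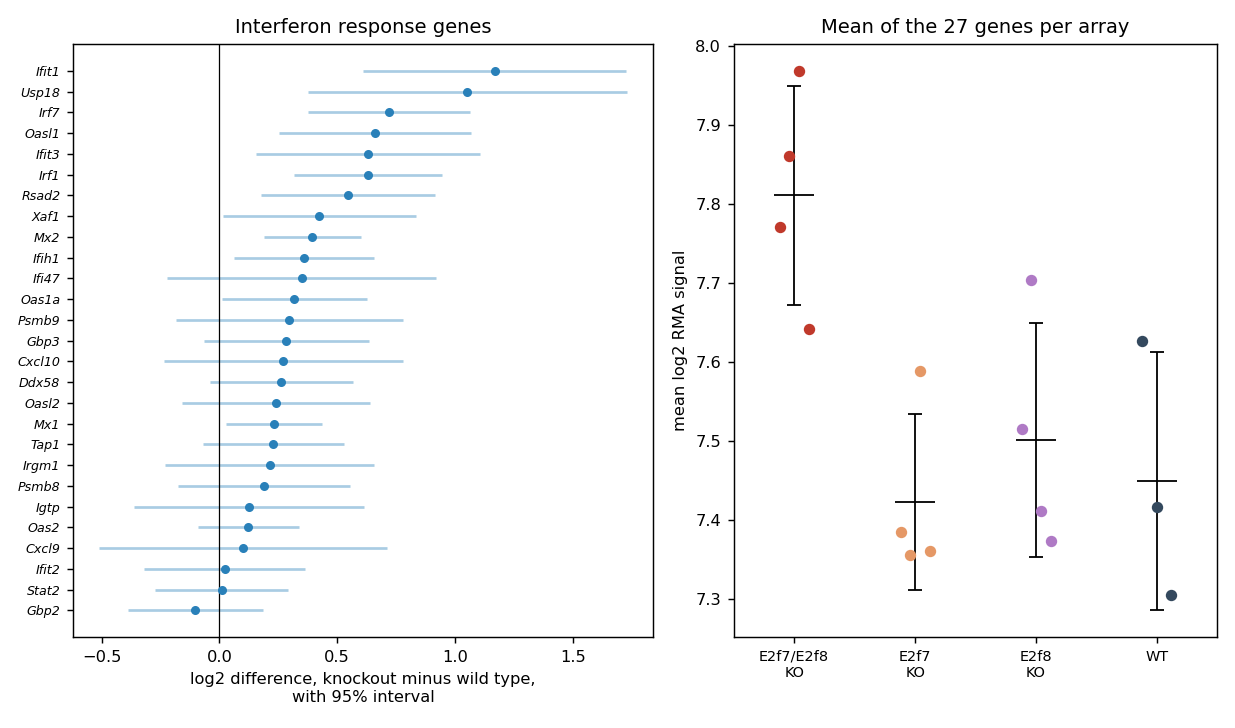
Left, the difference between the E2f7/E2f8 knockout and wild type at 2 months with its 95% interval (x axis, log2) for each of 27 interferon response genes. Right, the mean log2 RMA signal of these genes on each array (points) with the mean ± SD over arrays, for the E2f7/E2f8, E2f7 and E2f8 knockouts (n = 4 each) and wild type (n = 3); E2f7/E2f8 knockout arrays sit between 7.64 and 7.97, E2f7 knockout arrays between 7.36 and 7.59, E2f8 knockout arrays between 7.37 and 7.70 and wild-type arrays between 7.30 and 7.63, so both single knockouts overlap wild type.

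Promoter windows of 2 of these genes are shown for the sites that interferon-activated factors bind. Capitals mark GAAANNGAAA or, on the other strand, TTTCNNTTTC. The windows lie at chr19:34640639-34640938 for Ifit1 and chr19:34583279-34583578 for Ifit3, both on the plus strand, in RefSeq build GRCm38.p6.
Ifit1: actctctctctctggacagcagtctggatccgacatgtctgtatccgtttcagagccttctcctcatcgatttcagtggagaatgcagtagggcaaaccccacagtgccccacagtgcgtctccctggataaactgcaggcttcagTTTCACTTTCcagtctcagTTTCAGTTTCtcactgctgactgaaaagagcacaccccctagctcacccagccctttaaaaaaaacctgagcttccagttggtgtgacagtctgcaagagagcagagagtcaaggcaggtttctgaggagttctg
Ifit3: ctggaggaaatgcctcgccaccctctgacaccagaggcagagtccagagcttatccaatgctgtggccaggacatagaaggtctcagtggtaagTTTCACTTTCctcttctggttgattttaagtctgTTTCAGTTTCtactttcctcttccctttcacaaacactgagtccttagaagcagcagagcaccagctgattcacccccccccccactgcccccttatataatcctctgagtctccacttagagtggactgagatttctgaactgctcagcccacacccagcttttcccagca
Each window held 2 matches, apart from each other. Of the 23 interferon genes with a window 12 (52.2%) held the letters, against 3.63% of the 14452 tested genes. The median difference was 0.28 in those 12 and 0.30 in the 11 without. Over all tested genes the 524 that held it had a median of 0.012, with 22 (4.20%) higher and 13 lower at an unadjusted p under 0.05. Of all 18193 genes 2.42% stood higher and 1.64% lower at that p. No match in a window says only that these letters are not there.

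Sinusoidal endothelial and macrophage genes stood lower, and stellate cell and matrix genes did so with a smaller median. In bulk liver RNA, fewer cells of a type and less RNA per cell cannot be told apart. Of 21 sinusoidal endothelial markers 20 stood lower, with a median of -0.28 and none called. At an unadjusted p under 0.05 were 8 of them, where 1.64% of all genes stood lower at that p. All knockout arrays were lower in 2 of them, and in 2.39% of all genes. The inhibitory Fc receptor Fcgr2b had 9.83, 9.18, 9.16 and 9.79 in knockout livers, against 9.94, 9.84 and 10.46 in wild-type livers, with all knockout livers lower at -0.59 (SE 0.19, adjusted p = 0.778). The lectin Clec4g stood at -0.40 (SE 0.15), the endothelial cadherin Cdh5 at -0.34 (SE 0.13) and the receptor Flt4 at -0.33 (SE 0.11), each with overlapping groups. The scavenger receptor Stab2 was the member on the higher side, at 0.071 (SE 0.15). The list mean was 8.15, 7.71, 7.86 and 8.08 in knockout livers, against 8.19, 7.97 and 8.49 in wild-type livers, so knockout arrays 2 and 3 were low and arrays 1 and 4 lay within the wild-type range. Without wild-type array 3 the median was -0.14, with 16 of 21 lower and 0 at an unadjusted p under 0.05; leaving out the other arrays in turn gave medians of -0.41 to -0.20 and 3 to 12 such members. At 3 weeks all 21 members stood lower (median -0.33).

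Macrophage and Kupffer cell markers stood lower in 17 of 18, with a median of -0.27. At an unadjusted p under 0.05 were 3 members, where 1.64% of all genes stood lower at that p. All knockout arrays were lower in 5 members, and in 2.39% of all genes. Timd4, a phosphatidylserine receptor of resident Kupffer cells, had 6.93, 6.61, 6.59 and 6.95 in knockout livers, against 7.46, 7.14 and 7.09 in wild-type livers. Its groups did not overlap, at -0.46 (SE 0.20, adjusted p = 1.00). Cd5l, secreted by Kupffer cells, stood at -0.52 (SE 0.20), the scavenger receptor Marco at -0.58 (SE 0.29), Aif1 at -0.30 (SE 0.13) and Mpeg1, the exception, at 0.18 (SE 0.17). List means were 8.78, 8.52, 8.53 and 8.76 in knockout livers, against 9.11, 8.88 and 8.76 in wild-type livers. Against the same wild-type arrays the median was -0.33 in the E2f7 knockout and -0.60 in the E2f8 knockout. Without wild-type array 1 the median was -0.18 with 0 members at an unadjusted p under 0.05, and with all 5 wild-type arrays and no run term it was -0.14. At 3 weeks all 18 members stood lower (median -0.29). Stellate cell and matrix genes stood lower in 17 of 20 (median -0.082; -0.038 without wild-type array 3 and -0.20 without wild-type array 2), with the proteoglycans Lum at -0.72 (SE 0.22) and Dcn at -0.35 (SE 0.14). Medians were 0.018 for neutrophil and dendritic cell markers (16 genes), 0.036 for cholangiocyte and progenitor markers (13) and 0.10 for erythroid markers (12). In the erythroid list, the carbonic anhydrase Car2 stood at 0.46 (SE 0.13) and the transferrin receptor Tfrc at 0.56 (SE 0.27), and its mean was 6.34 to 6.49 in knockout livers and 6.24 to 6.30 in wild-type livers.

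**Figure D4:**
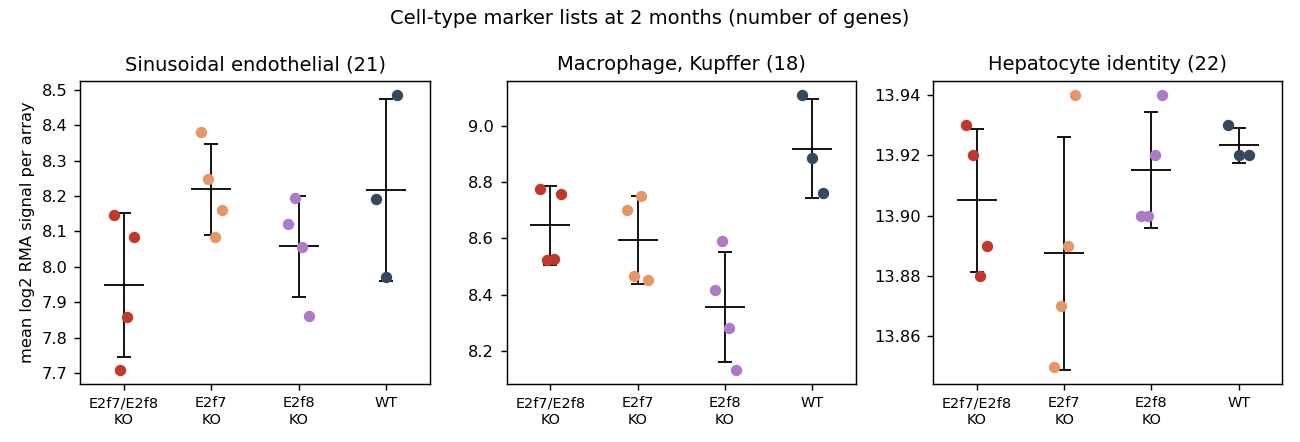
Mean log2 RMA signal per array (y axis) of sinusoidal endothelial, macrophage and hepatocyte genes at 2 months in the E2f7/E2f8, E2f7 and E2f8 knockouts (n = 4 each) and wild type (n = 3), with the mean ± SD over arrays. Endothelial means are 7.71 to 8.15 in the E2f7/E2f8 knockout and 7.97 to 8.49 in wild type, and hepatocyte means lie between 13.85 and 13.94 in all 4 groups.

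Hepatocyte metabolism lay near wild type at the level of lists. Cholesterol synthesis genes stood higher in 18 of 18 (median 0.16), with none at an unadjusted p under 0.05. Their mean was 9.88, 10.96, 10.65 and 10.56 in knockout livers, against 10.63, 10.47 and 9.93 in wild-type livers. Knockout array 1 and wild-type array 3 were both low, and the groups overlapped throughout. The median was 0.00046 without wild-type array 3, with 9 of 18 higher, 0.013 without knockout array 2, with 11 of 18 higher, 0.28 without wild-type array 1 and 0.36 without knockout array 1. Hmgcs1, at the entry of the pathway, stood at 0.37 (SE 0.34). Bile acid synthesis and transport genes had a median of 0.014 over 22 genes. In that list Cyp8b1, the 12-alpha hydroxylase that makes cholic acid, had 11.51, 11.87, 11.52 and 12.12 in knockout livers, against 11.19, 11.10 and 10.49 in wild-type livers. Its groups did not overlap, at 0.83 (SE 0.33, adjusted p = 1.00). Akr1d1, the bile acid reductase, stood at 0.48 (SE 0.17).

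Amino acid and serine metabolism genes had 12 of 19 higher (median 0.068). Bhmt, which remethylates homocysteine, stood at 0.58 (SE 0.21), the transsulfuration enzyme Cth at 0.39 (SE 0.16), Mthfd2 of the mitochondrial folate cycle at -0.29 (SE 0.13) and Psat1 of serine synthesis at -0.62 (SE 0.29). The hepatocyte identity list (22 genes) had a median of 0.0097, with Apob, the protein of very low density lipoprotein, at -0.21 (SE 0.10). Periportal genes had 11 of 14 higher (median 0.089), with the histidine ammonia-lyase Hal at 0.32 (SE 0.12) and Cdh1 at 0.40 (SE 0.19). Medians were -0.014 for pericentral genes (15), 0.0048 for fatty acid and triglyceride synthesis (22), 0.034 for PPAR alpha targets (27), 0.068 for gluconeogenesis and glycogen (15), 0.0078 for xenobiotic metabolism (29) and 0.043 for Wnt targets (15). In the last 2 of these, the sulfotransferase Sult1a1 stood at 0.38 (SE 0.17) and the Wnt receptor Fzd5 at 0.31 (SE 0.12). The circadian list had a median of 0.050 over 21 genes, with the repressor Cry2 at 0.33 (SE 0.12).

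Stress genes were mixed. Unfolded protein and heat shock genes had 11 of 26 higher (median -0.010). Atf4, the integrated stress response factor, had 10.76, 10.73, 10.75 and 10.69 in knockout livers, against 11.04, 10.96 and 11.28 in wild-type livers, and all knockout livers were lower at -0.36 (SE 0.11, adjusted p = 0.678). Its target Trib3 lay the other way, at 0.69 (SE 0.25) with all knockout livers higher, and the chaperone Calr stood at 0.21 (SE 0.09). Male-biased liver genes had a median of -0.071 (13 genes), female-biased ones 0.085 (16), with Rtn4 at 0.67 (SE 0.21), and Y-linked genes -0.068 (3), with Y-linked means of 7.30 to 7.46 in knockout livers and 7.28 to 7.43 in wild-type livers.

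Acute phase genes, which hepatocytes secrete in inflammation, split the arrays inside each group. Saa2, a serum amyloid, had 12.82, 11.4, 11.57 and 9.63 in knockout livers, against 13.28, 13.33 and 8.72 in wild-type livers. Lcn2, which binds iron-laden siderophores, had 11.01, 9.29, 9.03 and 7.50 in knockout livers, against 11.7, 11.64 and 6.52 in wild-type livers. Wild-type arrays 1 and 2 and knockout array 1 were high, and wild-type array 3 and knockout array 4 low. The list median was -0.055, with 8 of 24 higher. Orm2 stood at -1.35 (SE 0.59, adjusted p = 1.00), and without wild-type array 3 it fell by 2.70 (adjusted p = 0.00439). The SD of Orm2 at 2 months was 1.21 in the knockout and 2.45 in wild type. At 3 weeks it was 0.10 and 0.11, and the fit pools these, so its p-values do not reflect the spread at 2 months. The same pooling applies to every gene. An SE is too small where arrays at 2 months vary more than the other groups, and too large where they vary less. Saa3 stood at -1.18 (SE 0.45), with 10.38 on knockout array 1 and 8.28 to 8.42 on the others. The part of this variation in other results was not tested.

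The change with age was tested on the difference itself, which at 3 weeks and at 2 months shares no array. One gene passed (0.0055% of those tested), and 1325 had an unadjusted p under 0.05. Pcdh17, a cell adhesion protein of the protocadherin family, had 4.35, 4.25, 4.09 and 4.22 in knockout livers at 2 months, against 4.64, 4.25 and 4.28 in wild-type livers. At 3 weeks it had 4.46, 4.50, 4.54 and 4.47 in knockout livers, against 3.48, 3.52 and 3.86 in wild-type livers. The difference was -0.16 at 2 months and 0.87 at 3 weeks, and the change of -1.03 (SE 0.18, adjusted p = 0.0394) was no longer a call in 11 of the 23 other settings that gave it a value, with adjusted p up to 0.186. Psat1 did not pass, at -0.62 at 2 months and 1.28 at 3 weeks. The mitochondrial phosphatase Ppm1k stood at 0.38 and -0.55, Plscr2 at 0.29 and -0.72, Klhl24 at 0.39 and -0.70, and the oxidase Nox4 at -0.42 and 0.74 at 2 months and 3 weeks.

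At 3 weeks 118 genes were called (0.649%). At 2 months 85 of these 118 had the same sign, 12 of them with an unadjusted p under 0.05, and 2, Gm2788 and Yae1d1, were called at both ages. The median size of these 118 was 0.44 at 3 weeks, where they were chosen, and 0.044 at 2 months in the 3-week direction. Over all genes the differences at the ages correlated at r = 0.20 (Spearman rho = 0.14). This is across genes, which are not independent replicates. Mitosis genes had a median of 0.17 at 3 weeks and licensing genes 0.12. Runs at the ages were normalized separately, so levels are not set across them.

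**Figure D5:**
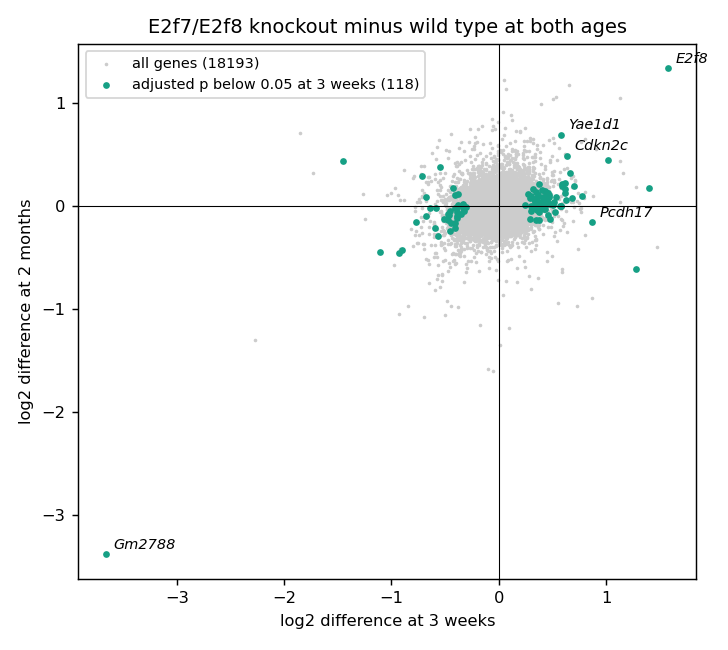
Difference between the E2f7/E2f8 knockout and wild type at 3 weeks (x axis, log2) and at 2 months (y axis, log2) for 18193 genes, with the 118 genes called at 3 weeks in green. Gm2788 lies far down at both ages and Yae1d1 up at both, while most green points lie near 0 on the y axis.

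Against the same 3 wild-type arrays, the single knockouts at 2 months had 1 called gene (E2f7) and 64 (E2f8). The call in the E2f7 knockout was Yae1d1, and both Yae1d1 and Gm2788 were among the 64. E2f8 signal stood at -0.55 in the E2f7 knockout and rose by 2.20 (adjusted p = 0.00179) in the E2f8 knockout. Cdkn2c stood at 0.086 and 0.15 in the E2f7 and E2f8 knockouts. Because the wild-type arrays are shared, these values are given side by side only.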

How the data were processed

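Log2 RMA values per probe set were deposited by the authors; RMA is named in the submitters' processing notes, and versions were not given in the sources used here. By their distributions the deposited values fall into 3 runs that appear to have been normalized apart (3 weeks; 2 months; and 2 months with wild-type replicates 4 and 5 and the E2f1/E2f2/E2f3 knockout). Of 45101 probe sets, 34945 had 1 gene symbol, 932 several and 9160 none; the probe set with the highest mean over 35 arrays stood for each of 18193 genes. limma 3.58.1 (R 4.3.3) fitted 9 group means with a term for the second 2-month run and an intensity trend, and p-values were adjusted by Benjamini-Hochberg over all genes. The fit was also run on simulated data, with normal noise of the same SD in every group for each gene. Such data cannot test how the fit behaves where the spread differs between groups. Arrays limit the precision by their number. Genes were named by rule: the E2F family, called genes, the smallest p in each direction leaving out clone and predicted names (such as Gm, Rik), 3 per list, and the largest changes with age. Not every list member picked by this rule is described above, and some lists are given by their median alone. Among those left out were Foxa2 at -0.60 (SE 0.32), Gadd45a at 0.62 (SE 0.37) and Acacb at 0.61 (SE 0.39), none called. Cdc6, Cdt1, Mcm6, Marco, Stab2, Mpeg1, Cdh5, Lcn2, Saa2, Hmgcs1, Gbp2, Cxcl10, 0610005C13Rik, promoter windows and other list members with a small p were chosen after their values were seen. Members of the 34 gene lists were chosen with earlier results of these data known. All alternatives are given at the end.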

Additional observations from a re-analysis of the deposited data

Results flagged for a closer look

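The change with age of Pcdh17 was flagged because the knockout difference differed between 3 weeks and 2 months in the test of the change itself, by -1.03.

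The remaining items stand out because 1 of the 4 knockout arrays lay far from the other 3, by a ratio of gap to range above Dixon's 95% critical value. This was so for 5 of 130 genes and list means; chance alone flags about 1 in 20. Fam214a had a ratio of 0.839, with 10.36 on knockout array 3 and 9.95 to 10.02 on the others. Akr1d1 had 0.898, with 10.48 on array 1 and 10.89 to 10.94 on the others. Cry2 had 0.885, with 8.65 on array 2, below the others. Saa3 had 0.933, with 10.38 on array 1 and 8.28 to 8.42 on the others. The mean of the female-biased list had 0.867, with 6.57 on array 4 and 6.16 to 6.22 on the others; Y-linked means did not set that array apart.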

How the results depend on the processing

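Gm2788 was called in every setting tried, and Yae1d1 in all but 2, the one with 5 wild-type arrays and no run term and the one with the mean of probe sets. The count of 2 genes at 2 months was 6 with no run term, 5 with the replicate number as a block, 13 with array weights and 1 with the mean of all probe sets; leaving out single arrays gave 2 to 5 (5, 2, 4 and 4 without knockout replicates 1 to 4; 2, 2 and 3 without wild-type replicates 1 to 3). The count of 1 for the change with age was 2 with the replicate block. It was 0 with quantile normalization, without the dimmest genes, with the mean of probe sets and without the second 2-month run. The setting without the dimmest genes leaves out Pcdh17 itself. Leaving out single arrays gave 0 to 4. Same-numbered knockout and wild-type arrays had correlations of -0.045, -0.089 and -0.168 in their deviations, so the replicate block rests on shared numbers only. Genes not called at 2 months but called under at least 1 other setting include 0610005C13Rik, E2f8, Ggps1, Car14, Ethe1, Cyp21a1, Mx2, Orm2, Irf1 and Fam214a. Settings with 15 or 7 arrays hold no 3-week array and give no change with age. Without the second run and without single 3-week arrays were settings chosen after seeing the data. The cause of these changes was not tested. Of 96 named genes 75 kept their direction in every setting, and of 34 list medians 9 did, among them interferon response (0.13 to 0.42), sinusoidal endothelial (-0.41 to -0.14), macrophage (-0.34 to -0.14), mitosis (0.019 to 0.11) and cholesterol synthesis (0.00046 to 0.36). For the probe set differences of Gapdh and Actb, leaving out single arrays gave 0.028 to 0.152 and -0.127 to -0.048; with the absolute difference of means as the statistic the exact permutation p was 0.429 and 0.143. With 4 arrays against 3, a typical 95% interval spans 0.20 to either side, which limits what could be detected.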

Other observations

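Some genes with a difference over 1 on the log2 scale belong to no list and were chosen after their values were seen; none passed. Onecut1, a hepatocyte transcription factor, had 8.06, 9.48, 7.19 and 9.52 in knockout livers, against 10.11, 9.80 and 10.6 in wild-type livers, with all knockout livers lower. Cish, a feedback inhibitor of growth hormone signalling, had 8.21, 10.28, 8.16 and 8.73 in knockout livers, against 10.15, 8.97 and 10.9 in wild-type livers, and Bcl6, a repressor in the same pathway, had 10.45, 8.30, 9.97 and 9.04 in knockout livers, against 8.25, 8.27 and 8.68 in wild-type livers. Across the knockout arrays Cish was highest and Bcl6 lowest on array 2, while across the wild-type arrays both were highest on array 3. Ccn2, a matricellular protein, had 7.98, 7.87, 7.46 and 7.14 in knockout livers, against 8.75, 8.83 and 8.42 in wild-type livers, with no overlap. Acnat2, an acyltransferase gene, had 7.96, 8.42, 7.76 and 7.43 in knockout livers, against 6.73, 6.87 and 6.67 in wild-type livers, also with no overlap. Mndal and Cox6b2 split the arrays inside groups: Mndal had 3.70 to 3.78 on 3 knockout arrays and 3.99 on wild-type array 2, but 6.48 on knockout array 4 and 6.64 and 6.57 on the other wild-type arrays, and Cox6b2 had 9.14 on wild-type array 3 and 5.67 to 5.94 on knockout arrays.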
